A study of Mus musculus with 4 samples.

Results

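Cholesterol synthesis in mouse colonic epithelium was followed through 8 enzyme genes, Hmgcs1, Idi1, Fdps, Fdft1, Sqle, Lss, Cyp51 and Dhcr7, out of 18193 genes named on the array. They were taken by gene symbol, and every probe set that the platform annotation assigns to them was read, which gave 21 of the 45037 probe sets. Intestinal epithelial cells (IECs) were profiled from 4 genotypes of C57BL/6 mice: DKO (Bmi1ΔIEC Mel18ΔIEC), Bmi1ΔIEC, Mel18ΔIEC and WT. Bmi1 and Mel18 (gene symbol Pcgf2) are alternative members of a Polycomb complex, which keeps developmental genes silent in chromatin. All 4 groups, WT included, were sex-matched mice 6 to 8 weeks old that received azoxymethane, a colon carcinogen, at 10 mg/kg. They then drank 3.5% dextran sulfate sodium, which injures the colon lining, for 5 days starting after 5 days, and were killed on day 12. No untreated group was analysed here, so every value is from an injured, carcinogen-exposed colon. The labels do not name the Cre line or the deleted exons behind ΔIEC. The design text sets the numbers 1 (DKO), 3 (Bmi1ΔIEC), 2 (Mel18ΔIEC) and 4 (WT) beside the genotypes without saying what they count, so how many mice stand behind an array is not known and may differ between genotypes. Cells were released from the colon with EDTA, with no sorting step described. There was 1 array per genotype, so no difference below has a replicate check and no p-value is given.

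Cells build cholesterol from acetyl-CoA. Hmgcs1 makes HMG-CoA, the precursor of mevalonate. Mevalonate becomes isopentenyl diphosphate, Idi1 converts this to its reactive isomer, and Fdps joins the units to farnesyl diphosphate, the branch point to protein prenylation, dolichol and ubiquinone. Fdft1 (squalene synthase) commits farnesyl diphosphate to sterols, Sqle oxidises squalene, Lss closes the rings to lanosterol, Cyp51 removes a methyl group from it, and Dhcr7 acts at the end of the route. The transcription factor SREBP2, encoded by Srebf2, drives these genes together when membrane sterol is scarce. The gut epithelium is a main site of cholesterol synthesis outside the liver.

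The promoters are shown because these genes are known to share SREBP2 control. In the RefSeq promoter table of build GRCm38.p6, 5 of the 8 genes were listed, with 7 start sites among them because Dhcr7 had 3. The 250 bases before each start were searched on both strands for TCACNCCAC (an SRE-like motif), GGGCGG (an Sp1-like GC box) and CCAAT. No matches overlapped in the 7 windows. The SRE-like motif was in 1 of the 7 windows, that of Hmgcs1, and in 1.05% of all 32851 windows in the table. GC boxes were in 6 of the 7 windows, against 32.7% of all windows, and CCAAT in 5 of the 7, against 33.8%. Besides the windows printed here, that of Idi1 held 1 GC box and 2 CCAAT matches and that of Cyp51 held 1 of each. The Dhcr7 window at chr7:143822917-143823166 held 1 GC box and no CCAAT match. The Dhcr7 window at chr7:143823149-143823398, which overlaps it, held no match to any of the 3 motifs. The windows of Hmgcs1 (chr13:119690101-119690350, plus strand), Lss (chr10:76531355-76531604, plus strand) and the start of Dhcr7 with all its CCAAT matches (chr7:143829964-143830213, plus strand) follow. Capitals mark matches to any of the 3 motifs.
Hmgcs1: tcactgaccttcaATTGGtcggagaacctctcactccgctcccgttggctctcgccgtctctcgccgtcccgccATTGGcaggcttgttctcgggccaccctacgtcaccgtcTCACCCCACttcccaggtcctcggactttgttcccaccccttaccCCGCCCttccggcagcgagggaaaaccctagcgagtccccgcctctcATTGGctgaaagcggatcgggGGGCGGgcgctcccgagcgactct
Lss: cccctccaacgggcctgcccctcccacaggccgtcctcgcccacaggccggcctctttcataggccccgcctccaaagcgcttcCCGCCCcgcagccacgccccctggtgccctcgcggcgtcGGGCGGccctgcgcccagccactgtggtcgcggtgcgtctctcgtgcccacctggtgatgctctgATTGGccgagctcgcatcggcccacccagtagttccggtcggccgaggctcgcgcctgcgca
Dhcr7: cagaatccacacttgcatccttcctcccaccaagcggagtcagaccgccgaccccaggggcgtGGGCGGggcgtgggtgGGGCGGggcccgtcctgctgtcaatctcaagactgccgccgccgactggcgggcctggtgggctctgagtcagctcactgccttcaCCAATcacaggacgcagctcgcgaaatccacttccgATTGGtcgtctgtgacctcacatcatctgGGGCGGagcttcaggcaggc
In the Hmgcs1 window the SRE-like match TCACCCCAC ran from base -137 to base -129 before the start. Its 2 GC boxes lay at -92 to -87 and -24 to -19. Of its 3 CCAAT matches, all on the minus strand, the nearest to the start lay at -45 to -41. The Lss window held 2 GC boxes and 1 CCAAT match, and the printed Dhcr7 window held 3 and 2. A match describes letters in the window and says nothing of binding.

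Values are RMA intensities, a summary of the probes of a probe set, on a linear scale. The floor for a measured level was 33.4 units, the median of all probe-set values. Array medians were 34.1 (DKO), 32.1 (Bmi1ΔIEC), 32.9 (Mel18ΔIEC) and 34.2 (WT). The deleted gene did not check the labels. Signal of the pair of Bmi1 probe sets was 432 and 399 on the array labelled DKO and 334 and 339 on that labelled Bmi1ΔIEC, above the 159.6 and 135 on Mel18ΔIEC and the 116 and 88.4 on WT. The brighter Pcgf2 (Mel18) probe set read between 30.2 and 39.8 on the 4 arrays, near the floor. Where these probes lie relative to the deleted exons is not given, so the arrays are called by their labels and each direction below rests on those labels. Xist, which coats the silenced X in females, had 611 units on DKO, 45.5 on Bmi1ΔIEC, 54.2 on Mel18ΔIEC and 122 on WT by its brightest probe set, although the labels call the mice sex-matched.

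Each gene is given first by its brightest probe set over the 4 arrays. Hmgcs1, which starts the pathway, read 5195 on the DKO array, 4045 on Bmi1ΔIEC, 4126 on Mel18ΔIEC and 5339.5 on WT. Its DKO and WT values were within 1.03-fold of each other, with both other arrays below them. Idi1, the isomerase, read 986, 1371, 1366 and 1553 in the same order, so DKO lay lowest and the 2 arrays of a lone deletion were nearly equal. Fdps, which makes farnesyl diphosphate, read 789, 798, 882 and 1419. The 3 knockout arrays lay within 1.12-fold of each other, and WT was 1.61-fold above the highest of them.

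Fdft1, squalene synthase, read 2130.1 on DKO, 1749 on Bmi1ΔIEC, 1855 on Mel18ΔIEC and 2313 on WT, an order like that of Hmgcs1 with DKO next to WT. Sqle, squalene epoxidase, read 1159, 1286, 1299 and 1750.4, with WT 1.35-fold above the highest knockout array. Lss, lanosterol synthase, read 305, 303, 322 and 525. The knockout arrays differed by at most 1.07-fold, the narrowest spread among the 8 genes, and WT lay 1.63-fold above them. Cyp51, lanosterol demethylase, read 495 on DKO, 407 on Bmi1ΔIEC, 454 on Mel18ΔIEC and 673 on WT, with DKO the highest of the knockouts.

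Dhcr7, the reductase of the final step, had an order of its own. It read 535 on DKO, 1064 on Bmi1ΔIEC, 932 on Mel18ΔIEC and 788 on WT. The Bmi1ΔIEC and Mel18ΔIEC arrays lay above WT and DKO below it, so the knockout arrays spanned 1.99-fold, the widest spread of the 8 genes. In these bulk preparations, fewer cells of a type and less RNA per cell cannot be told apart.

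**Figure D1:**
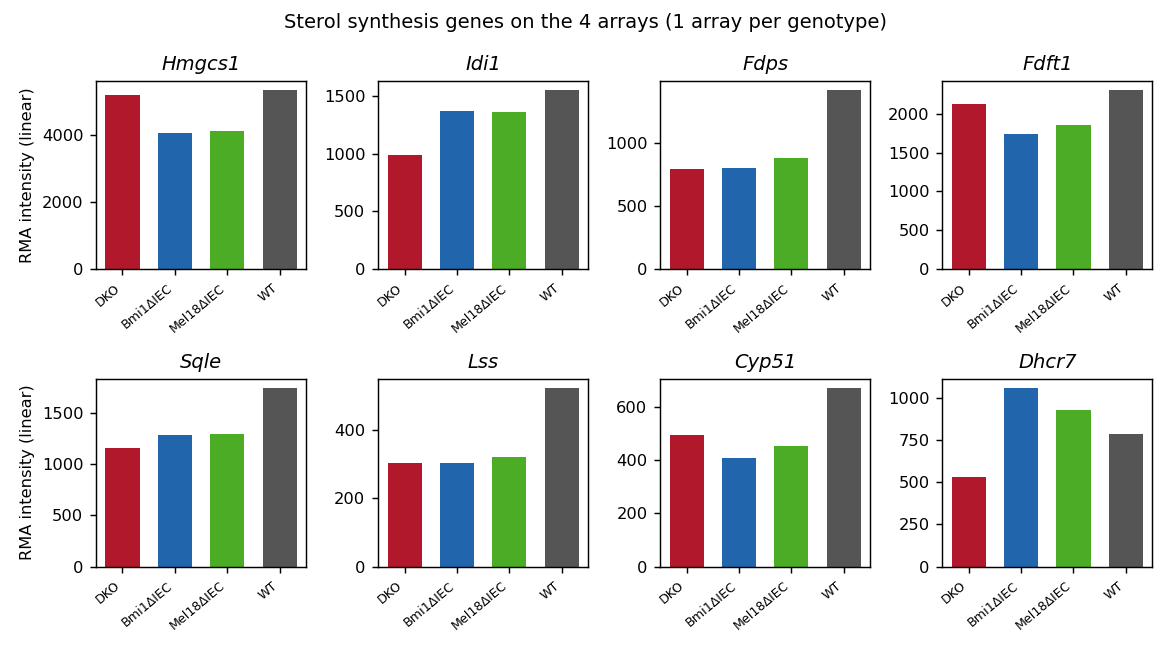
RMA intensity on a linear axis from 0 for each of the 8 genes, with 1 bar per array in the order DKO, Bmi1ΔIEC, Mel18ΔIEC and WT, and 1 array per genotype. Fdps and Lss show 3 low knockout bars beside a taller WT bar, Hmgcs1 and Fdft1 show DKO close to WT, and Dhcr7 shows DKO lowest and Bmi1ΔIEC highest.

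On the DKO array the 8 genes were lower than on WT, with a median log2 difference of -0.58 against -0.01 over the 11853 genes tested (those whose higher value reached the floor). A lower value by any amount was seen in 8 of 8, and in 52% of all genes tested. The size rule was a difference of at least 1.5-fold, and 4 of 8 genes passed it as lower and none as higher, against 6.56% and 6.13% of all genes. The 4 were Fdps at -0.85, Lss at -0.78, Idi1 at -0.65 and Sqle at -0.59. Dhcr7 at -0.56 and Cyp51 at -0.44 did not pass, and Fdft1 at -0.12 and Hmgcs1 at -0.04 lay near the middle of all genes. No gene of the 8 passed a 2-fold rule, which 2.19% of genes passed as lower and 2.13% as higher. By quantile-normalized values Sqle read -0.58 and no longer passed the 1.5-fold rule.

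On the Bmi1ΔIEC array the median difference from WT was -0.42, against 0.13 over 11934 genes. Of the 8 genes 7 were lower by any amount (40% of all genes), and 3 were lower by the 1.5-fold rule (7.53% of all genes). These were Fdps at -0.83, Lss at -0.79 and Cyp51 at -0.72. Sqle lay at -0.45, Hmgcs1 and Fdft1 at -0.40 each and Idi1 at -0.18, and Dhcr7 was the exception at 0.43. None of the 8 was higher by the rule, which 17.8% of genes were, and none passed the 2-fold rule (2.86% of genes lower and 5.76% higher).

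On the Mel18ΔIEC array the median was -0.40, against 0.07 over 11862 genes. Again 7 of 8 were lower by any amount (41.9% of all genes), and 2 passed the 1.5-fold rule, Lss at -0.70 and Fdps at -0.69 (6.28% of genes lower, and 11.8% higher, where none of the 8 was). Cyp51 at -0.57 came just short of it, followed by Sqle at -0.43, Hmgcs1 at -0.37, Fdft1 at -0.32, Idi1 at -0.19 and Dhcr7 at 0.24. None passed the 2-fold rule (2.5% of genes lower and 3.15% higher). These 3 comparisons share the WT array, so a high value on that array alone would lower all of them.

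The scaling of the arrays moved the median gene on the Bmi1ΔIEC array from 0.13 as deposited to -0.12 when arrays were centred on their floor-passing genes. Relative to the median of all genes the 8 genes lay at -0.56 (DKO), -0.55 (Bmi1ΔIEC) and -0.47 (Mel18ΔIEC) as deposited. With each gene as the mean over all its probe sets, the distances were -0.45, -0.35 and -0.23. The number of the 8 genes lower than WT was 8, 7 and 7 under each of the 3 scaling alternatives. Without probe sets ending in _s_at, _x_at or _a_at it was 8, 6 and 6. Among all genes past the 1.5-fold rule, the share that was higher is set by the scaling: it was 70.3% on Bmi1ΔIEC and 65.3% on Mel18ΔIEC as deposited, and 36% and 39.1% after centring on floor-passing genes.

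**Figure D2:**
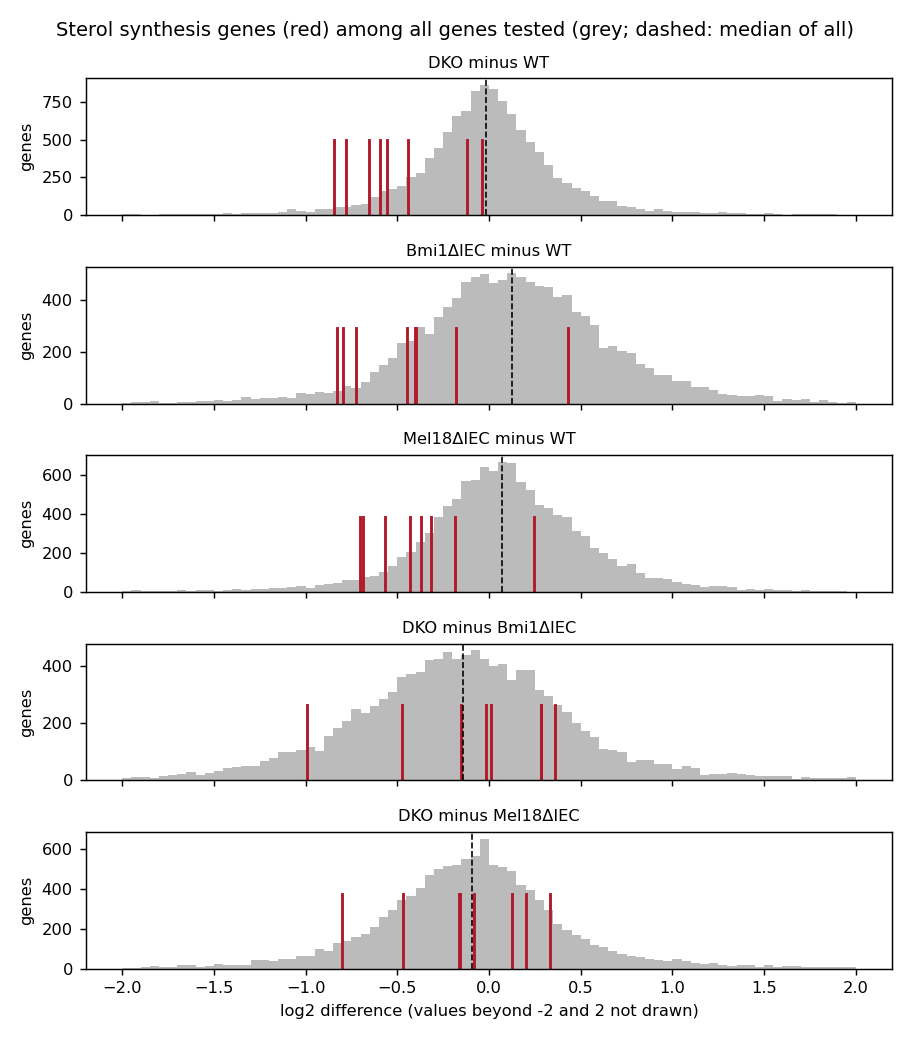
Histograms of the log2 difference of all genes tested in each of the 5 comparisons, with the 8 sterol synthesis genes as red lines and the median of all genes as a dashed line. In the 3 comparisons with WT most red lines lie left of the dashed line, whereas in the 2 comparisons of DKO with the other knockouts they lie on both sides of it.

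Comparison of DKO with the other knockout arrays does not use WT. Against Bmi1ΔIEC the median of the 8 genes was -0.0018, with 4 lower and 4 higher (60.4% of all genes were lower), and against Mel18ΔIEC it was -0.12, with 5 lower and 3 higher (59.3% of all genes were lower). All genes had medians of -0.14 and -0.09 there. Dhcr7 was lower in DKO by the 1.5-fold rule in both, at -0.99 and -0.80 (21.3% and 14.1% of all genes were). None of the 8 was higher by that rule, which 9.92% and 8.62% of genes were. By the 2-fold rule none passed either way, against 7.96% lower and 4.3% higher in the first comparison and 4.53% lower and 3.84% higher in the second. Idi1 came next at -0.48 and -0.47, short of the rule. Hmgcs1 at 0.36 and 0.33 and Fdft1 at 0.28 and 0.20 were higher in DKO, as was Cyp51 at 0.28 and 0.13. For Fdps, Sqle and Lss the sizes were at most 0.16, and their sign turned in at least 1 of these 2 comparisons under another scaling.

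A non-additive term, the DKO value minus both other knockout values plus WT, was -1.23 for Dhcr7 and -0.29 for Idi1. It was positive for the other 6 genes, from 0.28 for Sqle to 0.85 for Cyp51. A gene that is equally low on all 3 knockout arrays has a positive term of the same size, as Lss at 0.71 shows.

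Of the 21 probe sets, 17 reached the floor on every array, 1 (Cyp51 1422534_at) on some and 3 on none. The 3 dim ones belong to Fdps (1, at most 4.65 units) and Fdft1 (2, at most 29.1 units) and carry no measured level. Among the other 18, lower values than WT were seen in 17 on DKO, 15 on Bmi1ΔIEC and 14 on Mel18ΔIEC. Of all 24573 probe sets that reached the floor on any array, 51.9%, 45.5% and 46.8% were lower there. Probe sets of a gene share its RNA and are not replicates.

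Lss was the gene whose probe sets disagreed most. Its 1420014_at read 54.2 on DKO, 55.2 on Bmi1ΔIEC, 58.2 on Mel18ΔIEC and 83.0 on WT, with every knockout array below WT as on the brightest probe set, 1420013_s_at. In contrast 1426913_at read 67.4, 169.6, 195 and 111, so the Bmi1ΔIEC and Mel18ΔIEC arrays lay above WT by 0.61 and 0.82. Only the DKO value, at -0.72, ran the same way on all 3 Lss probe sets. The low Lss values on the Bmi1ΔIEC and Mel18ΔIEC arrays therefore hold for 2 of its 3 probe sets.

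Hmgcs1 had 5 probe sets. Its 1433444_at read 2187 on DKO, 2757 on Bmi1ΔIEC, 2573 on Mel18ΔIEC and 2934 on WT, and 1433445_x_at had the same order, with DKO lowest at -0.38 from WT. The brightest set, 1433443_a_at, placed DKO highest among the knockouts instead. The 1433446_at set was higher on every knockout array, at 0.24, 0.34 and 0.17, and 1441536_at read -0.75 on Bmi1ΔIEC alone past the 1.5-fold rule. Hmgcs1 thus has no order of arrays that its probe sets share.

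Idi1 was concordant. Its second probe set, 1423804_a_at, read 323 on DKO, 561 on Bmi1ΔIEC, 592 on Mel18ΔIEC and 623 on WT, a DKO difference of -0.95 beside -0.65 for the brighter set. The second Fdft1 set, 1448130_at, lay at -0.13, -0.22 and -0.22 from WT, again with DKO nearest to WT. Cyp51 1422533_at read 178, 187, 217 and 208, at -0.23, -0.15 and 0.06, a smaller difference than the -0.44, -0.72 and -0.57 of its brightest set. The third Cyp51 set, 1422534_at, read 34.2, 28.0, 38.7 and 44.8, close to the floor. Fdps, Sqle and Dhcr7 rest on 1 measured probe set each.

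**Figure D3:**
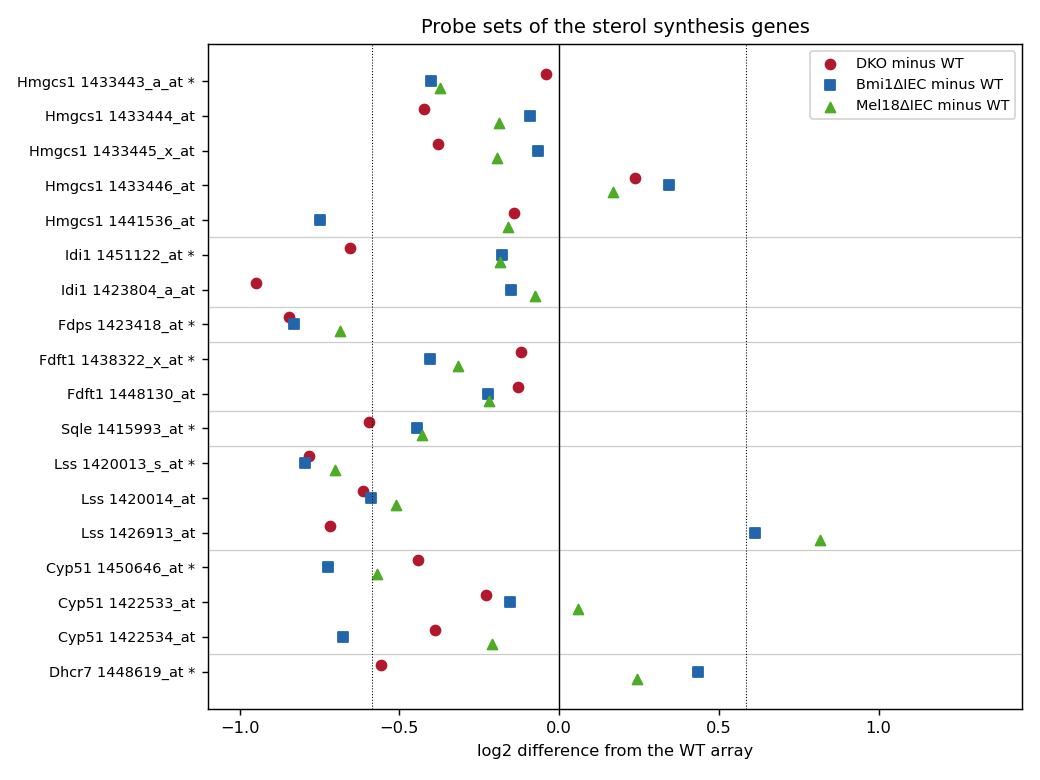
Log2 difference from WT of the 18 probe sets that reached the floor, by gene, for DKO (circles), Bmi1ΔIEC (squares) and Mel18ΔIEC (triangles). Asterisks mark the brightest set of a gene and dotted lines the 1.5-fold rule, and Lss 1426913_at and Dhcr7 stand out with Bmi1ΔIEC and Mel18ΔIEC right of 0 and DKO left of it.

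Of 13 further enzymes of the route, 10 were on the array under a symbol and all reached the floor. The others were not analysed here. Lower values than WT were seen in 8 of 10 on DKO, 8 on Bmi1ΔIEC and 7 on Mel18ΔIEC, with medians of -0.44, -0.29 and -0.27. Of all genes tested 52%, 40% and 41.9% were lower. By the 1.5-fold rule 1, 0 and 1 were lower as deposited, near the share among all genes (6.56%, 7.53% and 6.28%). Each time it was Pmvk, phosphomevalonate kinase, at -0.65 on DKO and -0.72 on Mel18ΔIEC. Pmvk read 287 on DKO, 306 on Bmi1ΔIEC, 275 on Mel18ΔIEC and 452 on WT. Its neighbours in the mevalonate segment did not pass the rule on any array as deposited. Mvk, mevalonate kinase, differed by -0.48, -0.22 and -0.21. Mvd, which yields isopentenyl diphosphate, differed by -0.47, -0.52 and -0.51. Mvd had 3 knockout values between 240.3 and 249 beside 345 on WT. After quantile normalization Pmvk (-0.69) and Mvd (-0.65) passed the rule on Bmi1ΔIEC, where 8.39% of all genes were lower by it. Centring on floor-passing genes gave -0.80 and -0.76 there, with 16.5% of all genes lower by the rule. Mvd also passed on Mel18ΔIEC by these settings, at -0.59 and -0.67 (6.85% and 10.7% of all genes).

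After lanosterol, Msmo1, the C4-methyl oxidase, read 1374, 1324, 1424 and 1960.4, at -0.51, -0.57 and -0.46 from WT. Nsdhl, its partner in C4 demethylation, differed by -0.56, -0.53 and -0.32. Hsd17b7, the ketosteroid reductase of the same complex, ran the other way on DKO, with 709 on DKO, 431 on Bmi1ΔIEC, 406 on Mel18ΔIEC and 493 on WT. DKO was 1.65-fold and 1.75-fold above the other knockouts in that gene. Msmo1 and Nsdhl passed the 1.5-fold rule on Bmi1ΔIEC after quantile normalization, at -0.63 and -0.65. With arrays centred on floor-passing genes they passed there at -0.80 and -0.76, and Msmo1 also on Mel18ΔIEC, at -0.62. The later enzymes Lbr and Ebp had an order like Dhcr7, with DKO lowest. Lbr, which reduces the C14 double bond and also anchors chromatin at the nuclear envelope, read 572, 1051, 853 and 762. Ebp, the sterol isomerase, read 1109.5, 1576, 1491 and 1463, with signs on the Bmi1ΔIEC and Mel18ΔIEC arrays that turned under other scalings. Tm7sf2, the other C14 reductase, lay at 0.20, -0.28 and 0.12, and its Mel18ΔIEC sign turned with scaling, as did that of Lbr. Sc5d, the C5 desaturase, lay at -0.02, -0.31 and -0.25.

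**Figure D4:**
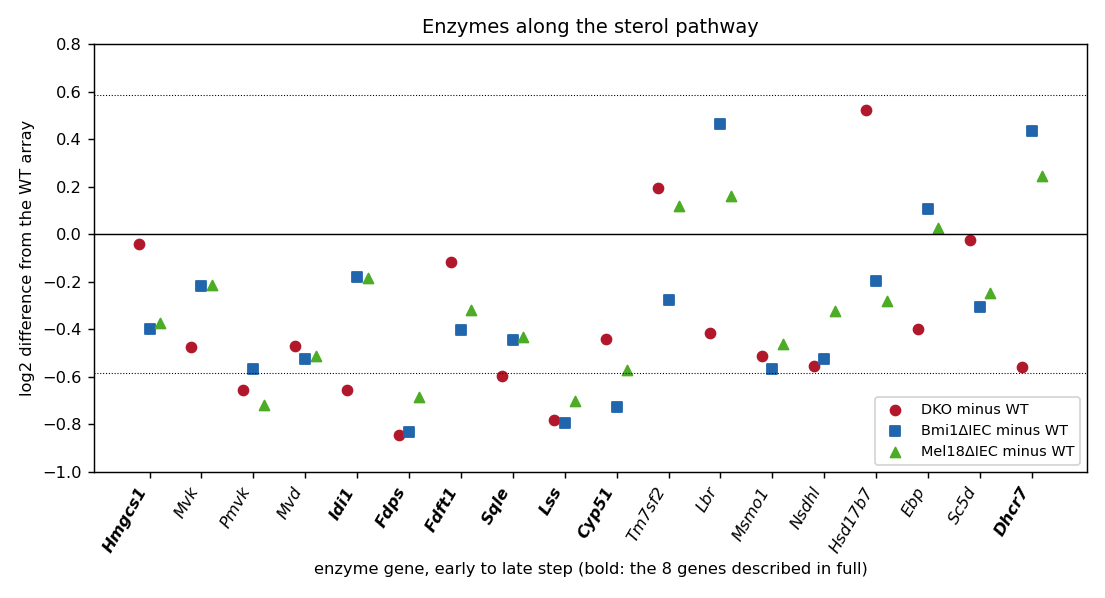
Log2 difference from WT for 18 enzymes from early to late step (the 8 genes described in full in bold), for DKO (circles), Bmi1ΔIEC (squares) and Mel18ΔIEC (triangles), with the 1.5-fold rule dotted. The points from Hmgcs1 to Cyp51 lie below 0 on all 3 arrays, while Lbr, Ebp and Dhcr7 have DKO below 0 and the other arrays above it, by values that turn sign under another scaling for Ebp on both arrays and for Lbr on Mel18ΔIEC.

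Farnesyl diphosphate also feeds an isoprenoid branch, of which 8 of 9 listed genes were measured. Their medians were -0.13 on DKO, 0.32 on Bmi1ΔIEC and 0.10 on Mel18ΔIEC. None was lower by the 1.5-fold rule, against 6.56%, 7.53% and 6.28% of all genes. As deposited 0, 2 and 1 were higher by it, against 6.13%, 17.8% and 11.8% of all genes. Lower values of any size were seen in 5, 3 and 3 of the 8, and in 52%, 40% and 41.9% of all genes tested. Ggps1, which makes geranylgeranyl diphosphate, read 95.6, 139, 95.9 and 71.4 and was above WT on every knockout array, at 0.42, 0.97 and 0.43. Coq2, of ubiquinone synthesis, read 320.0 on DKO, 589 on Bmi1ΔIEC, 443 on Mel18ΔIEC and 385 on WT. Pggt1b, a subunit of a prenyltransferase, read 207, 326, 336 and 219. With arrays centred on floor-passing genes, and after quantile normalization, Coq2 on Bmi1ΔIEC (0.38 and 0.50) no longer passed the rule. Nor did Pggt1b on Mel18ΔIEC (0.46 and 0.53). With arrays centred on their medians Pggt1b passed on Bmi1ΔIEC too, at 0.67. Pdss2, also of ubiquinone synthesis, was below WT on each knockout array, at -0.52, -0.32 and -0.24.

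The SREBP control genes, 7 of 7 measured, did not share a direction. Srebf2, the driver of the pathway, read 404 on DKO, 340.1 on Bmi1ΔIEC, 334 on Mel18ΔIEC and 506 on WT, at -0.33, -0.57 and -0.60. Only the Mel18ΔIEC value passed the 1.5-fold rule, and with arrays centred on their medians it did not, at -0.54. With arrays centred on floor-passing genes both Bmi1ΔIEC (-0.81) and Mel18ΔIEC (-0.76) passed, as they did after quantile normalization (-0.69 and -0.67). Srebf1, whose products favour fatty acid genes, lay at -0.12, -0.33 and -0.28. Insig1, which holds SREBP in the endoplasmic reticulum and is itself an SREBP target, read 425, 725, 816 and 631, an order with DKO lowest as in Dhcr7. DKO minus Bmi1ΔIEC was -0.77 and DKO minus Mel18ΔIEC -0.94 for Insig1. The escort protein Scap stayed within 0.17 of WT, Insig2 within 0.27, and the proteases Mbtps1 and Mbtps2 lay at -0.21, 0.18 and 0.30 and at 0.08, 0.65 and 0.22. Another scaling turned the sign of Scap on Bmi1ΔIEC and Mel18ΔIEC, of Insig1 and Mbtps1 on Bmi1ΔIEC, and of Insig2 on Mel18ΔIEC.

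Of 5 listed SREBP2 targets outside synthesis, 2 reached the floor, Npc1l1 did not, and the others were not analysed here. Stard4, a sterol transfer protein, lay above WT at 0.17, 0.24 and 0.34. Tmem97 read 169 on DKO, 284 on Bmi1ΔIEC, 253 on Mel18ΔIEC and 241 on WT, so DKO was again lowest, while the sign of Mel18ΔIEC minus WT turned with scaling. Npc1l1, the cholesterol uptake protein of the brush border, read 33.3, 13.1, 14.5 and 13.6, all under the floor, so it has no measured level.

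Abcg5 and Abcg8, which pair to pump sterol back into the gut lumen and are targets of the sterol sensor LXR, were highest on the DKO array. Abcg5 read 1746 on DKO, 158 on Bmi1ΔIEC, 148 on Mel18ΔIEC and 134 on WT, and Abcg8 read 339, 74.8, 86.0 and 75.7. Their DKO differences from WT were 3.71 and 2.16, and those of the other arrays were at most 0.24 in size. Mylip, an LXR-induced ubiquitin ligase, read 248, 491, 525 and 201, so it was high on the Bmi1ΔIEC and Mel18ΔIEC arrays instead. By the 1.5-fold rule 0, 1 and 0 of 10 measured genes of the efflux and storage list were lower and 2 were higher on each array. Of all genes 6.56%, 7.53% and 6.28% were lower and 6.13%, 17.8% and 11.8% higher, so 2 of 10 on Bmi1ΔIEC was near the overall share. The medians of the list were 0.25, 0.25 and 0.22.

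Fatty acid synthesis genes under SREBP1 had a lower median on DKO than the sterol genes. Of 10 genes, 7 were lower and 1 higher by the 1.5-fold rule on DKO, with 6 of 10 lower by the 2-fold rule and a median of -1.05. Of all genes, 6.56% were lower and 6.13% higher there by the 1.5-fold rule, and 2.19% lower by the 2-fold rule. On Bmi1ΔIEC and Mel18ΔIEC 4 and 3 were lower by the 1.5-fold rule (7.53% and 6.28% of all genes), with medians of -0.34 and -0.40. Scd1, a desaturase, read 98.4 on DKO, 119.9 on Bmi1ΔIEC, 186 on Mel18ΔIEC and 391 on WT. Scd2 read 1813, 4619, 4953 and 6132, and Fads1, another desaturase, 50.3, 101, 78.2 and 121. WT was the highest array for these 3, but not for the desaturase Fads2, which read 407 on DKO, 1169 on Bmi1ΔIEC, 994 on Mel18ΔIEC and 787 on WT. By brightest probe set WT was the highest array for 7 of the 8 sterol enzymes. Among the further enzymes it was not the highest for Hsd17b7, Tm7sf2, Lbr and Ebp. Nor was it on the probe sets Lss 1426913_at, Hmgcs1 1433446_at and Cyp51 1422533_at. The share of all genes with WT highest was not computed.

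**Figure D5:**
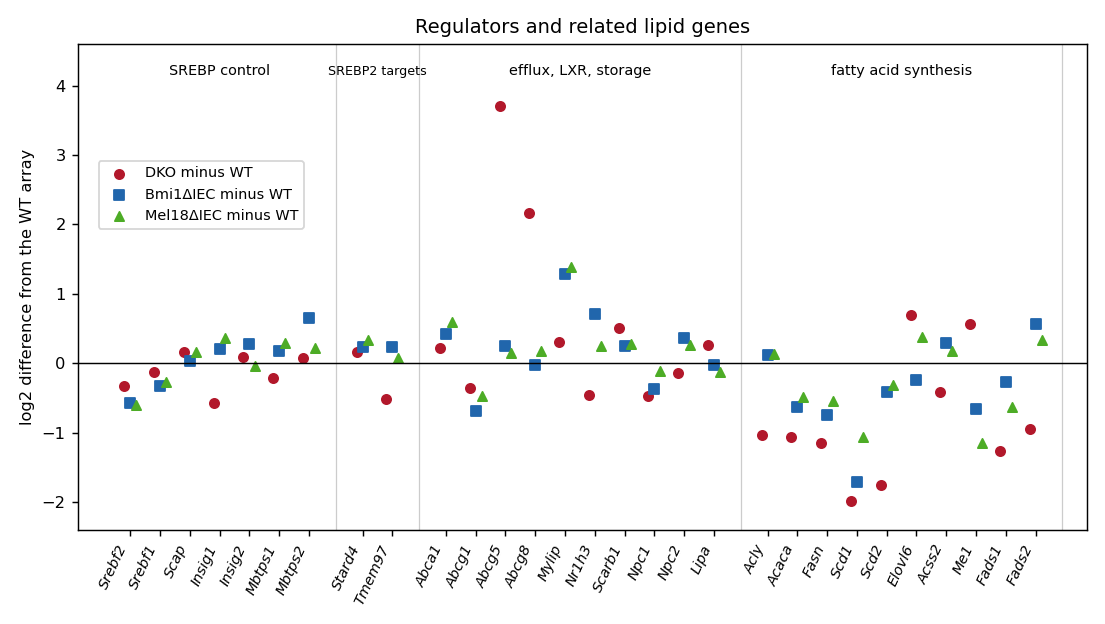
Log2 difference from WT of genes of SREBP control, SREBP2 targets, sterol efflux and storage, and fatty acid synthesis that reached the floor, for DKO (circles), Bmi1ΔIEC (squares) and Mel18ΔIEC (triangles). Abcg5 at 3.71 and Abcg8 at 2.16 on DKO and Scd1 at -1.99 on DKO are the extremes, while the SREBP control genes lie between -0.60 and 0.65.

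Many genes had a pattern like the mean of the 8 enzymes, which was -0.50, -0.42 and -0.38 on DKO, Bmi1ΔIEC and Mel18ΔIEC. Among 10731 other genes at or above the floor on all 4 arrays, the 8 nearest by root-mean-square distance over these 3 differences were Speg, Srrt, Rnpep, Dock6, Aopep, Kif24, Sympk and Cmc2, at distances of 0.03 to 0.05. Of the enzymes, Sqle was nearest to the mean of its 7 companions, at 0.07. Other genes were counted as nearer by their own distance to the mean of all 8, which was smaller than 0.07 for 14. These centres differ, so the counts are not of genes nearer to the companions of an enzyme. Fdps lay at 0.41 with 2814 nearer, Lss at 0.38 with 2298, and Dhcr7 at 0.70 with 7236, or 67.4% of the genes compared. With 4 arrays such likeness is easily met and says nothing of shared control.

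Markers of cell states and other cell types differed between the arrays, and their part in the values above was not tested. Proliferation genes (10 of 11 on the array reached the floor) summed to 2314 on DKO, 4900.1 on Bmi1ΔIEC, 3719 on Mel18ΔIEC and 5595 on WT. In them 10 of 10 tested genes were lower on DKO by the 1.5-fold rule, 1 on Bmi1ΔIEC and 3 on Mel18ΔIEC. The shares of all genes were 6.56%, 7.53% and 6.28%. Mcm5 of the replication helicase lay at -2.32, -0.57 and -1.31, short of the rule on Bmi1ΔIEC. Epithelial markers, 12 of 12 above the floor on every array, summed to 96153, 79695, 83668 and 92852, with median differences of 0.13, -0.16 and -0.09. Single epithelial markers differed by more: Krt20, a keratin of mature surface cells, lay at 0.13, -1.29 and -0.87 from WT, Vil1 of the brush border at 0.30, -0.52 and -0.31, and Fabp2, a fatty acid binding protein, at 1.32, 1.20 and 1.33. Neutrophil markers, of which 1 of 10 reached the floor on every array and 2 on none, summed to 3095, 352, 467 and 3497. Macrophage markers summed to 4637, 2934, 2619 and 4511, T and NK cell markers to 1942, 658, 511 and 942, and fibroblast markers to 5388, 1478, 3594 and 3438. Cd14 made up much of the macrophage sum on Bmi1ΔIEC, at 1549 of 2934, and less of it on the other arrays. It read 722 on DKO, 756 on Mel18ΔIEC and 1199 on WT. It was above WT on Bmi1ΔIEC, where 9 of the 10 macrophage markers were below WT. Of these sums the DKO value was the lowest for proliferation genes only, and the immune sums were lowest on the Bmi1ΔIEC and Mel18ΔIEC arrays. B and plasma cell markers summed to 6274, 4555, 5248 and 5601, and smooth muscle markers to 5289, 3666, 4996 and 5494. Endothelial markers summed to 188, 183, 155 and 172, with 1 of 5 above the floor on every array. These sums varied less in proportion than the neutrophil, macrophage, T and NK cell, and fibroblast sums. Most of the B and plasma cell sum was Xbp1 (4368, 3572, 4334 and 4557), which secretory epithelium also expresses, while Jchain, which joins antibody units, read 1686, 786, 725 and 789.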

How the data were processed

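Total RNA (200 ng per array) from mouse colonic epithelial cells was hybridised to Affymetrix mouse expression arrays, 1 per genotype. The authors deposited 1 intensity per probe set and array, and the submitters' processing notes name Affymetrix Expression Console and RMA without a version. No source used here says if all arrays entered 1 RMA run. The values are linear (3.25 to 22803), so log2 was taken with no pseudocount and no other scaling. The design had allowed for log2 or linear values.

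The platform annotation gave 34945 of the 45037 probe sets a lone gene symbol, gave 932 several, and did not list 9160. For 34741, symbols were updated through the gene table of GRCm38.p6. The probe set brightest on average stood for its gene. Differences are the first-named array minus the second. With 1 array per genotype there was no test, and precision is limited by having 4 arrays. The size rule asked for a 1.5-fold difference with the higher value at or above the floor, and it was tested on simulated data. Noise between arrays cannot be estimated from 1 array per genotype. The simulation therefore cannot say how often unchanged genes pass the rule in these data. The genes, lists, motifs and size rules were chosen with earlier results of these data known. The text names all 8 genes, all further enzymes, SREBP genes and targets, up to 3 genes of each other list by largest difference from WT, and the 8 nearest genes. Xist, Fads2, Pdss2, Krt20, Vil1, Fabp2, Cd14, Xbp1 and Jchain were chosen after their values were seen. Marker lists are given mainly as sums. Alternatives were other summaries of probe sets, scalings, a pseudocount of 16, other floors and a 2-fold rule. Python 3.11.15, numpy 2.4.6, pandas 2.3.3 and matplotlib 3.10.9 were used.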

Additional observations from a re-analysis of the deposited data

Results flagged for a closer look

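The following genes or probe sets were set aside because the same labelled deletion went with opposite differences, each at least 1.5-fold, on the 2 backgrounds available for it. The deletions are as labelled, since the signal of the targeted genes did not check them. The difference between the backgrounds was not tested, since each value comes from 1 array. The Lss probe set 1426913_at differed by 0.82 for Mel18ΔIEC minus WT and by -1.33 for DKO minus Bmi1ΔIEC, a change of -2.15 between backgrounds. For the Bmi1 deletion it differed by 0.61 on the WT background and by -1.53 on the Mel18ΔIEC background, again -2.15 because the same 4 arrays enter. With arrays centred on genes at the floor, and after quantile normalization, the 0.61 became 0.38 and 0.51, short of 1.5-fold, and the other 3 differences still passed. The other Lss probe sets did not show this: 1420013_s_at read -0.70 and 0.01 for the Mel18 deletion, and 1420014_at read -0.51 and -0.026.

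Mylip differed by 1.39 for Mel18ΔIEC minus WT and -0.99 for DKO minus Bmi1ΔIEC, and by 1.29 and -1.08 for the Bmi1 deletion on the 2 backgrounds, a change of -2.38 in each case. Pggt1b differed by 0.62 for Mel18ΔIEC minus WT and -0.66 for DKO minus Bmi1ΔIEC, a change of -1.28. Both differences missed 1.5-fold with arrays centred on genes at the floor (0.46 and -0.42) and after quantile normalization (0.53 and -0.52).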

How the results depend on the processing

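In the text a summary counts as kept when it stayed within 1.5 times its value and kept its sign. The main medians were -0.58 (DKO minus WT), -0.42 (Bmi1ΔIEC minus WT), -0.40 (Mel18ΔIEC minus WT), -0.0018 (DKO minus Bmi1ΔIEC) and -0.12 (DKO minus Mel18ΔIEC), with 4, 3 and 2 genes lower than WT by the 1.5-fold rule. The 3 medians against WT kept their sign under every alternative run, and that of DKO also kept its size. With the mean over all probe sets, which includes dim ones, the Bmi1ΔIEC and Mel18ΔIEC medians were -0.25 and -0.17, DKO minus Bmi1ΔIEC was -0.095, and 0 genes passed on either of these arrays against WT. With the mean over probe sets at the floor, an alternative chosen after seeing the data, the Mel18ΔIEC median was -0.19, DKO minus Bmi1ΔIEC was -0.083, and 1 gene passed on each. Without probe sets ending in _s_at, _x_at or _a_at the medians were -0.20 (Bmi1ΔIEC), -0.20 (Mel18ΔIEC), -0.24 (DKO minus Bmi1ΔIEC) and -0.20 (DKO minus Mel18ΔIEC), with 1 gene passing on Mel18ΔIEC. Centring on array medians gave -0.090 for DKO minus Bmi1ΔIEC. Centring on genes at the floor gave -0.66 for Bmi1ΔIEC, with 6 genes passing there and 4 on Mel18ΔIEC, and turned DKO minus Bmi1ΔIEC to 0.23 and DKO minus Mel18ΔIEC to 0.044. Quantile normalization turned DKO minus Bmi1ΔIEC to 0.12 and gave -0.045 for DKO minus Mel18ΔIEC. The 2-fold rule left 0, 0 and 0 genes, by its own construction, and for the other shifts the cause was not tested. For DKO minus Bmi1ΔIEC and DKO minus Mel18ΔIEC, the share of all genes past the rule that were higher was 31.7% and 37.9% as deposited, and 61.2% and 59.8% after that centring. By its probe set 1426913_at, Lss reversed to 0.61 on Bmi1ΔIEC and 0.82 on Mel18ΔIEC. No paired analysis was possible because each genotype has 1 array, and no array could be left out for the same reason.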
